A study of Mus musculus with 2 samples.

Results

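The cells described here are the 337 Control cells that the deposited cell annotation names Prss34 and the 37 that it names Prg2. They were taken as basophil-type and eosinophil-type progenitors, although part of the Prss34 class held little or no Prss34 and Mcpt8. Both classes together were 374 of the 6906 Control cells and of the 14795 cells in the series. The Prss34 class held 4.880% of Control cells (exact Clopper-Pearson 95% interval, 4.384 to 5.415) and the Prg2 class 0.5358% (0.3775 to 0.7377), intervals that cover counting error only. Another 1076 cells of the class named CD34 and 621 of the class named Gstm1/CD63 served as references. The classes are called here by their deposited names, written as "the Prss34 class" and "the Prg2 class" to keep them apart from the genes Prss34 and Prg2.

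Single-cell RNA was measured with version 3 of the 10x Genomics 3′ kit in C57BL/6 mouse marrow progenitors sorted as Lineage-, c-Kit+ and Sca1-, in a series that compares Control with Runx1 KO. Control was 1 library made from the mixed marrow of 2 mice: 1 was Runx1f/f and the other was Runx1f/-, which carries a germline mutation on a single Runx1 allele. No Cre line, age or sex is stated for them in the sources used here, and cells cannot be assigned to either mouse. The annotation calls this library a wild type, which was taken to mean Control, and a label field that speaks of embryos conflicts with the fields that name hind limb marrow. Because there was 1 library, and cells of a library are not replicates, no difference below has a test: levels are the unique molecular identifiers (UMIs) summed over a class and scaled to a total of 1000000 (CPM), and 95% intervals on ratios (exact, conditional on the 2 counts) cover counting error only. The deposited classes come from these same transcripts, by a method not given in the sources used here, so every difference between them is a description.

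Basophils and eosinophils are rare granulocytes that arise in the marrow from myeloid progenitors and act in allergy and in the defence against parasites. Basophils store histamine and serine proteases and are triggered through the high-affinity IgE receptor, a property they share with mast cells. Eosinophils pack their granules with cationic proteins, among them major basic protein, eosinophil peroxidase and ribonucleases. GATA factors and C/EBP factors are known to act in both lineages, and their order and amount bear on which one is taken.

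Median depth was similar in the 2 classes, while the range was wider in the Prg2 class. Prss34 class cells had a median of 13639 UMIs (range 1919 to 43367) and Prg2 class cells a median of 15171 (3213 to 61567), against 19390 in CD34 and 28810 in Gstm1/CD63 cells. The summed totals were 5128652 and 669331 UMIs, so that 1 UMI was worth 0.1950 CPM in the Prss34 class and 1.494 CPM in the Prg2 class. The 2 libraries of the series shared 13 cell barcodes, of which 0 lay in these classes. Mitochondrial UMIs made up 10% or more in 7 and 3 cells of the classes, and 22 and 5 cells had more than 2 times their class's median UMIs.

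The start-site sequences of 5 basophil genes that hold a GATA motif are shown, with those of 3 eosinophil genes that do not. They were picked by hand, and the 2 eosinophil genes that hold the motif, Il5ra and Ccr3, are not printed. Each line is the coding-strand sequence of the 120 bases before the start that RefSeq gives on GRCm38.p6, 5′ to 3′. For Ear1 that start lies inside the longer gene span of GENCODE, whose positions are given for genes below. For Fcer1a it lies just upstream of the GENCODE span. Capitals mark matches on either strand. The letters searched were AGATAA for the motif of GATA factors, next TTGCNNAA for that of C/EBP factors, and lastly TGTGGT for that of RUNX factors.
Prss34, chr17:25298274-25298393, plus strand: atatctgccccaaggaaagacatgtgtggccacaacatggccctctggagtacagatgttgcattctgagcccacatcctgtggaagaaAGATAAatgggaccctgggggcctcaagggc
Cpa3, chr3:20242182-20242301, minus strand: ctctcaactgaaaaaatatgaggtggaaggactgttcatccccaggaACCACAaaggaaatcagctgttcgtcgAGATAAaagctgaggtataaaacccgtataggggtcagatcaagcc
Ms4a2, chr19:11623720-11623839, minus strand: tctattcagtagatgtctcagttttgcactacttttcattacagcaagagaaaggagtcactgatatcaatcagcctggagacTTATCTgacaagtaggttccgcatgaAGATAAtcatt
Cd200r3, chr16:44943558-44943677, plus strand: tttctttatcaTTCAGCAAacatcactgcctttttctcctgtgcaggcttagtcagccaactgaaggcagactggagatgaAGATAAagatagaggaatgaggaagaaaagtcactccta
Fcer1a, chr1:173227230-173227349, minus strand: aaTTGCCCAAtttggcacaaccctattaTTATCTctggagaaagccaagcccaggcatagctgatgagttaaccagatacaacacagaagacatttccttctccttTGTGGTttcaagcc
Prg3, chr2:84988095-84988214, plus strand: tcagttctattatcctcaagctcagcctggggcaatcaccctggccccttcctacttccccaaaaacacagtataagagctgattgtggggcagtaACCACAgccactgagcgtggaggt
Ear1, chr14:43819640-43819759, minus strand: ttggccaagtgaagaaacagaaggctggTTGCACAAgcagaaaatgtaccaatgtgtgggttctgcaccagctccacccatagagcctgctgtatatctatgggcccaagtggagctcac
Ear2, chr14:44102534-44102653, plus strand: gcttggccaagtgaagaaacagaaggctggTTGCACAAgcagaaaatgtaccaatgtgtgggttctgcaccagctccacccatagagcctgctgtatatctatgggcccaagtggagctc

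Counted back from the base before the start, AGATAA or its complement lay at -31 to -26 in Prss34, -46 to -41 in Cpa3, -39 to -34 in Cd200r3 and -92 to -87 in Fcer1a. Ms4a2 held it at -37 to -32 and at -11 to -6, and also at -224 to -219, upstream of the stretch printed. Over the 250 bases before the start, 8 of the 15 basophil and mast cell effector genes held a GATA motif, against 9.988% of the 32851 promoters in the table. The same 15 genes included 5 with the C/EBP motif (9.564% of all promoters) and 5 with the RUNX motif (14.05%). Among the eosinophil genes, 9 of 12 had a promoter in the table. Of these, 2 (Il5ra and Ccr3) held the GATA, 3 the C/EBP and 1 the RUNX motif. All 3 with the C/EBP motif were Ear genes, where it sat between -94 and -83, and the Ear1 and Ear2 stretches shared a run of 118 identical bases. Of the 11 mast cell protease genes, 7 had a promoter, with 0, 0 and 3 matches by gene. No 2 of these matches overlapped, and a match to these letters is a property of the sequence, not a measured binding site.

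Basophil granule and receptor genes separated the classes. Of 15 basophil and mast cell effector genes, 12 were measured (at least 30 CPM and 20 UMIs, in at least 5 cells, in the class where the gene was higher), and 11 were at least 2-fold higher in the Prss34 class, by log2 of the ratio of CPM + 10. None was 2-fold higher in the Prg2 class, and the median log2 ratio of the 12 was 1.52. Over all 4848 measured genes, 3.09% were at least 2-fold higher in the Prss34 class and 1.67% in the Prg2 class, with a median of 0.02. These are the background shares for every list count below. Summed over the list, the level was 13140 CPM in the Prss34 class, 2364 in the Prg2 class, 761.4 in CD34 and 361.4 in Gstm1/CD63.

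Prss34 itself, which encodes the basophil protease mMCP-11 (chr17:25298394-25300165, plus strand, GRCm38), ranged from 0 to 1218 UMIs a cell in the Prss34 class with a median of 1, and from 0 to 64 with a median of 0 in the Prg2 class. The sums came to 4458 and 262.9 CPM, a ratio of 16.95 (14.62 to 19.78), against 7.514 CPM in CD34 and 7.041 in Gstm1/CD63. Mcpt8, the gene of the basophil protease mMCP-8 (chr14:56082166-56085273, minus strand), ranged from 0 to 767 UMIs with a median of 9, and from 0 to 53 with a median of 3. Its sums were 3818 and 355.6 CPM, a ratio of 10.74 (9.449 to 12.25). Both proteases overlapped widely between the classes cell by cell, and both were also above the references in the Prg2 class. Leaving out the 8 Prg2 class cells that held at least 10 UMIs of the 2 proteases together raised the log2 ratios by construction, from 4.03 and 3.39 to 6.76 and 4.74, which shows only how much of the Prg2 class level lay in those cells.

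Gzmb, the granzyme B gene (chr14:56258838-56262260, minus strand), stood at 452.0 CPM in the Prss34 class and 1.494 CPM, which was 1 UMI, in the Prg2 class, a ratio of 302.5 with a counting interval of 54.24 to 11950. It was detected in 85 of 337 cells, with up to 154 UMIs in a cell, and its cells are taken up below. Cpa3, the carboxypeptidase of mast cell and basophil granules (chr3:20215620-20242181, minus strand), was broader. It had a median of 22 UMIs in the Prss34 class (0 to 176) and 9 in the Prg2 class (0 to 67), with 1922 against 715.6 CPM, a ratio of 2.685 (2.450 to 2.949). CD34 cells stood at 427.4 CPM and Gstm1/CD63 cells at 134.6. Csrp3, which encodes a LIM-domain protein best known from muscle, followed with 580.9 against 71.71 CPM, and 42.55 and 7.430 in the references.

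Hdc, the histidine decarboxylase that makes histamine (chr2:126593667-126619299, minus strand), was the list's exception. All 37 Prg2 class cells held it, with a median of 8 UMIs (1 to 19), and 304 of the 337 Prss34 class cells did, with a median of 5 (0 to 29). The sums were 379.4 CPM in the Prss34 class and 475.1 in the Prg2 class, a log2 ratio of -0.32, against 87.59 in CD34 and 144.7 in Gstm1/CD63. Slc18a2, the vesicular monoamine transporter that loads histamine into granules, was higher in the Prss34 class, at 177.2 against 71.71 CPM. The remaining 3 genes stood at low levels: Cd200r4 and Itga2 at 5.070 and 11.89 CPM in the Prss34 class, with 1 UMI each in the Prg2 class, and Il13 with 2 UMIs in all.

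Mast cell proteases were close to absent from both classes. Of 11 genes on that list, 6 (Mcpt1, Mcpt2, Mcpt4, Mcpt9, Tpsab1 and Mrgprb2) had no UMI in either class, and 3 UMIs, taken as the limit of detection, would be 0.5849 and 4.482 CPM. Only Cma1, the mast cell chymase gene, was measured, at 30.22 CPM in the Prss34 class and 1 UMI in the Prg2 class. Its 155 UMIs came from 22 cells, and 27.74% of them from 1 cell. Tpsb2, a tryptase gene, had 22 UMIs, all in that same cell of 4071 UMIs, which also held 43 UMIs of Cma1, 78 of Cpa3, 9 of Mcpt8, 3 of Gzmb and 0 of Prss34.

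**Figure D1:**
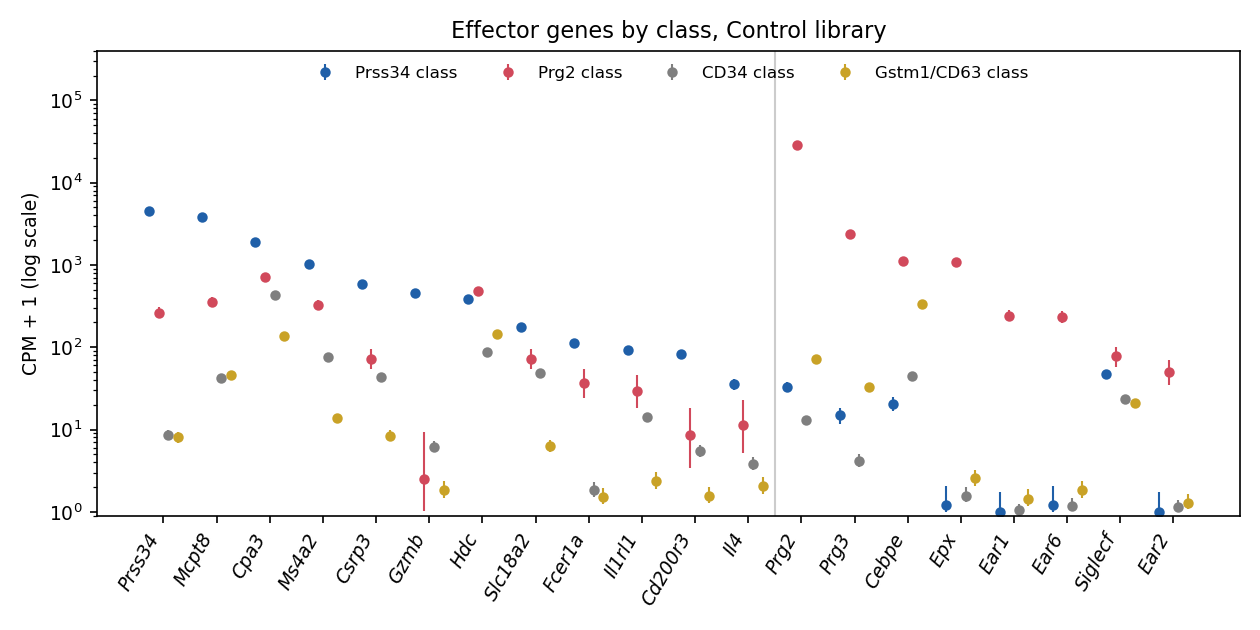
Summed level of basophil and mast cell genes (left of the line) and eosinophil genes (right) in the 4 classes of the Control library, as CPM + 1 on a log axis, with 95% counting intervals as vertical bars. The Prss34 class is highest for the genes on the left except Hdc, and the Prg2 class is highest for the 8 genes on the right, with Prg2 itself at 28840 against 31.98 CPM.

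Eosinophil granule genes made the reverse contrast, and a wider one. Of 12 genes on the eosinophil list 8 were measured. Of these, 7 were at least 2-fold higher in the Prg2 class (1.67% of all measured genes) and none in the Prss34 class (3.09%). Their median log2 ratio was -4.95. The list summed to 34050 CPM in the Prg2 class and 132.4 in the Prss34 class, with 82.92 in CD34 and 465.1 in Gstm1/CD63. Prg2, the major basic protein gene (chr2:84980461-84983632, plus strand), alone made up 2.884% of the UMIs of its class. Each of the 37 cells held between 20 and 1739 Prg2 UMIs, with a median of 492, whereas the Prss34 class had a median of 0 and at most 107. The sums were 28840 and 31.98 CPM, a ratio of 901.9 (773.4 to 1058), and only 1 Prss34 class cell lay within the range of the Prg2 class.

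Prg3, the adjacent paralogue of Prg2 (chr2:84988215-84993886, plus strand), had a median of 37 UMIs (1 to 115) in the Prg2 class and 0 (0 to 20) in the Prss34 class. Its sums were 2381 and 13.84 CPM, and 31.88 CPM in Gstm1/CD63. Epx, the eosinophil peroxidase gene (chr11:87864000-87875536, minus strand), had 729 UMIs in 35 of 37 cells of the Prg2 class (1089 CPM, with a median of 9 UMIs and at most 113) and 1 UMI in the whole Prss34 class. That gave a ratio of 5586 with a counting interval of 999.4 to 220900. Of all 6906 Control cells, the 17 with 10 or more Epx UMIs were all of the Prg2 class.

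The ribonuclease genes Ear1, Ear2 and Ear6 were the most uneven. Ear1 (chr14:43818765-43875517, minus strand) had 161 UMIs in 11 Prg2 class cells and 0 in the Prss34 class, which made it at least 411.2-fold higher against a floor of 3 UMIs over the class. Ear6 (chr14:51853699-51854643, plus strand) had 156 UMIs in 14 cells against 1, and Ear2 (chr14:44102654-44103534, plus strand) had 33 in 10 cells against 0, at least 84.29-fold. Ear1 and Ear2 share the start-site run printed above and the Ear genes are a family of near copies, so reads may be split among them and each value is uncertain. Siglecf, the eosinophil surface lectin gene, differed less, with 76.20 against 46.21 CPM, a ratio of 1.649 (1.194 to 2.239). Il5ra, the receptor subunit of the eosinophil growth factor IL-5, had 11 UMIs in 7 Prg2 class cells and 0 in the Prss34 class, below the minimum. Ccr3, a chemokine receptor gene of mature eosinophils, had 1 UMI in the Prg2 class and 9 in the Prss34 class. Alox15, a lipoxygenase gene, had 6 UMIs in 5 Prg2 class cells and 96 in 44 Prss34 class cells (8.964 and 18.72 CPM), below the minimum in both, with 0 UMIs in CD34.

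The genes Prss34 and Prg2 were highest in the classes named for them. That is no check of the labels, since the classes come from these same transcripts. Some granule genes of each lineage were also not detected in every cell of their class. No Prss34 or Mcpt8 UMI was seen in 83 of the 337 Prss34 class cells. Prg2 and Prg3 were found in all 37 Prg2 class cells, and Epx in 35. Summed over the Prg2 class, 4 of the 12 genes on the eosinophil list did not reach 20 UMIs. Cell by cell, some cells held both granule programmes. All 37 Prg2 class cells held at least 10 UMIs of Prg2, Prg3 and Epx summed, 32 held at least 1 UMI of Prss34 or Mcpt8, and 8 held at least 10. In the other class, 254 cells held at least 1 UMI of the basophil proteases and 182 at least 10, 30 held at least 1 eosinophil UMI and 6 at least 10. All 6 of those also had at least 10 basophil protease UMIs.

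Free RNA in the droplets gives stray UMIs, so shares were set beside the erythroid-type Car1 class (2210 cells, median 15393.50 UMIs), which should lack these genes. Each cell was thinned to 5000 UMIs, which left out 20 Prss34, 7 Prg2 and 113 Car1 class cells. Prss34 was then detected in 30% of Prg2 class cells (14.73 to 49.40), 46.69% of Prss34 class cells and 1.383% of Car1 class cells (43.24, 55.79 and 4.932% before thinning). Mcpt8 was detected in 63.33, 66.88 and 1.574% (81.08, 71.81 and 4.706% before). The shares of basophil protease positive cells in the Prg2 class were above those of the Car1 class. Before thinning, Prss34 was also detected in 7.085% of Gstm1/CD63 and 5.669% of CD34 cells, and Mcpt8 in 47.67 and 32.53%. Whether the UMIs in the Prg2 class were stray or came from droplets of several cells was not tested. For the reverse, the Prg2 gene was found in 3.785% of thinned Prss34 class cells (1.971 to 6.519) against 1.860% of Car1 class cells (7.418 and 5.566% before thinning), intervals that overlap (1.326 to 2.534 in Car1). A low stray level and a few true positive cells cannot be told apart by these shares. Epx was found in 0 of 317 thinned Prss34 class cells (upper limit 1.157%) and 80% of Prg2 class cells.

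**Figure D2:**
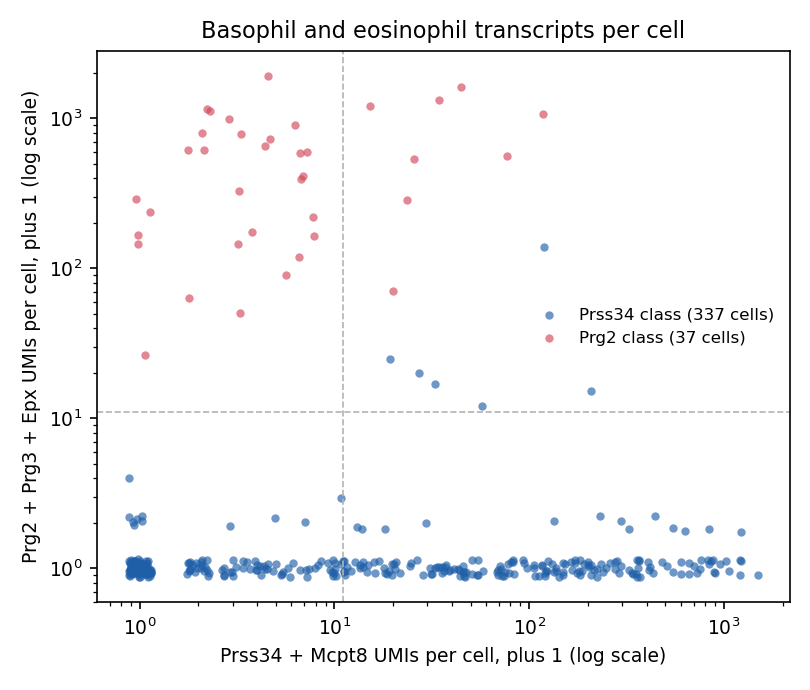
UMIs per cell of the basophil proteases Prss34 and Mcpt8 (horizontal) and of the eosinophil genes Prg2, Prg3 and Epx (vertical), each plus 1 on log axes with a small random shift to separate points. All 37 Prg2 class cells lie above the horizontal dashed line at 10 UMIs, 8 of them also right of the vertical one, and 6 of the 337 Prss34 class cells lie in the same corner.

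At the main setting most measured genes were within 2-fold between the classes, and the count of those past it depended on the setting. Of 4848 measured genes 231 (4.76%) differed at least 2-fold, 150 higher in the Prss34 class and 81 higher in the Prg2 class. With a pseudocount of 1 in place of 10 the counts were 221 and 147. With cells thinned to 5000 UMIs they were 402 and 51, of only 3140 measured genes. At that depth the fixed UMI minimum stood above the CPM minimum in the Prg2 class only, so these 2 counts are not like for like. After the effectors, the genes furthest above in the Prss34 class included Scin, which encodes the actin-severing protein scinderin (288.8 CPM, against 1 UMI in the Prg2 class, a ratio of 193.3 with a counting interval of 34.64 to 7639). Cyp11a1, the first enzyme of steroid synthesis, stood at 153.3 against 7.470 CPM, and was found in 204 of 337 and 3 of 37 cells. Ccr1, a chemokine receptor gene, stood at 70.19 CPM against 1 UMI, and Padi2, a peptidylarginine deiminase gene, at 120.7 against 13.45 CPM. Rab19, a small GTPase gene, had 220 UMIs in 128 cells against 0, at least 9.571-fold higher against the floor.

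On the Prg2 side, the genes other than granule proteins included Ldhc, a lactate dehydrogenase gene known from testis, at 222.6 against 5.655 CPM, found in 24 of 37 and 18 of 337 cells. Ctsh, which encodes the lysosomal protease cathepsin H, stood at 170.3 against 11.89 CPM. Arsb, the lysosomal arylsulfatase B gene, was found in all 37 Prg2 class cells, at 384.0 against 50.70 CPM, with 12.63 and 59.66 CPM in CD34 and Gstm1/CD63. Gatm, an enzyme of creatine synthesis, had 119.5 against 12.87 CPM, but also 154.0 CPM in Gstm1/CD63. The copper transporter gene Slc31a2 had 58.27 against 2.925 CPM. Pf4, the platelet factor 4 gene, ranked among these at 470.6 against 11.89 CPM, yet 96.83% of its Prg2 class UMIs came from 1 cell, and without that cell its log2 ratio was -0.42 in place of -4.46.

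**Figure D3:**
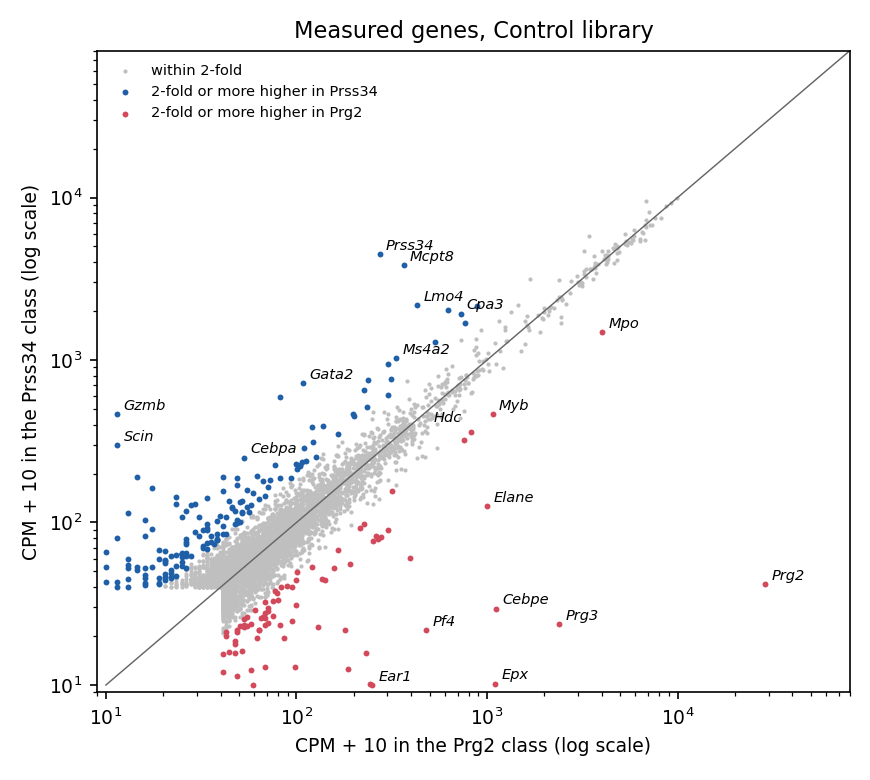
Level of each of the 4848 measured genes in the Prg2 class (horizontal) and the Prss34 class (vertical), as CPM + 10 on log axes, with the line of equality. The 150 genes at least 2-fold higher in the Prss34 class and the 81 at least 2-fold higher in the Prg2 class are coloured, and Prg2, Prg3, Epx and Cebpe lie furthest below the line.

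Lineage transcription factors split in both directions. Of 42 on the list 29 were measured, 7 were at least 2-fold higher in the Prss34 class (3.09% of all measured genes) and 2 in the Prg2 class (1.67%), and the median log2 ratio was 0.16. Gata2, the GATA factor of early progenitors, basophils and mast cells (chr6:88193891-88207032, plus strand), had a median of 10 UMIs in the Prss34 class (0 to 35) and 1 in the Prg2 class (0 to 11). The sums were 712.9 and 98.61 CPM, a ratio of 7.229 (5.668 to 9.368), with 139.7 in CD34 and 20.96 in Gstm1/CD63. Gata1, the related factor of erythroid cells, eosinophils and mast cells, was level at 48.16 and 46.31 CPM. Of these 2 GATA factors, only Gata2 separated the classes.

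The C/EBP factors were divided by member. Cebpe, which acts late in granulocyte maturation (chr14:54710360-54712174, minus strand), was found in 36 of 37 Prg2 class cells, with a median of 19 UMIs and at most 58, and in 19 of 337 Prss34 class cells. Its sums were 1110 and 19.50 CPM, a ratio of 56.93 (46.15 to 70.87), with 43.57 in CD34 and 338.2 in the neutrophil-type Gstm1/CD63 cells. The 1 Prg2 class cell without it was the shallowest of the class, with 3213 UMIs, of which 20 were Prg2. Cebpa, which starts the granulocyte programme (chr7:35119293-35121928, plus strand), was the other way round, with a median of 4 UMIs (0 to 16) in the Prss34 class and 0 (0 to 4) in the Prg2 class. It stood at 240.8 against 43.33 CPM, a ratio of 5.558 (3.850 to 8.334), with 111.4 and 95.20 CPM in the references, so the Prg2 class was the lowest of the 4. Cebpb was within 2-fold, at 200.4 and 113.5 CPM.

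Other regulators were higher in the Prss34 class. Lmo4, a LIM-only cofactor gene (chr3:144188530-144205220, minus strand), had a median of 31 against 6 UMIs a cell and 2165 against 421.3 CPM, with 276.9 and 96.86 CPM in the references. Runx1, the factor targeted elsewhere in the series, stood at 454.3 against 188.2 CPM, with 214.2 in CD34 and 78.79 in Gstm1/CD63. The helix-loop-helix inhibitor gene Id2 had 103.7 CPM against 2 UMIs, and the Notch target Hes1 55.77 CPM against 0, at least 12.44-fold against the floor. Without the Prss34 class cells of 3 or more Gzmb UMIs, the log2 ratio of Id2 went from 3.13 to 1.12 and that of Hes1 from 2.72 to 0.92. Myb, a progenitor factor, was the other regulator higher in the Prg2 class, with a median of 18 UMIs (3 to 48) against 6 (0 to 27) and 1058 against 455.3 CPM. Spi1 stood at 249.5 and 152.7 CPM, within 2-fold.

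**Figure D4:**
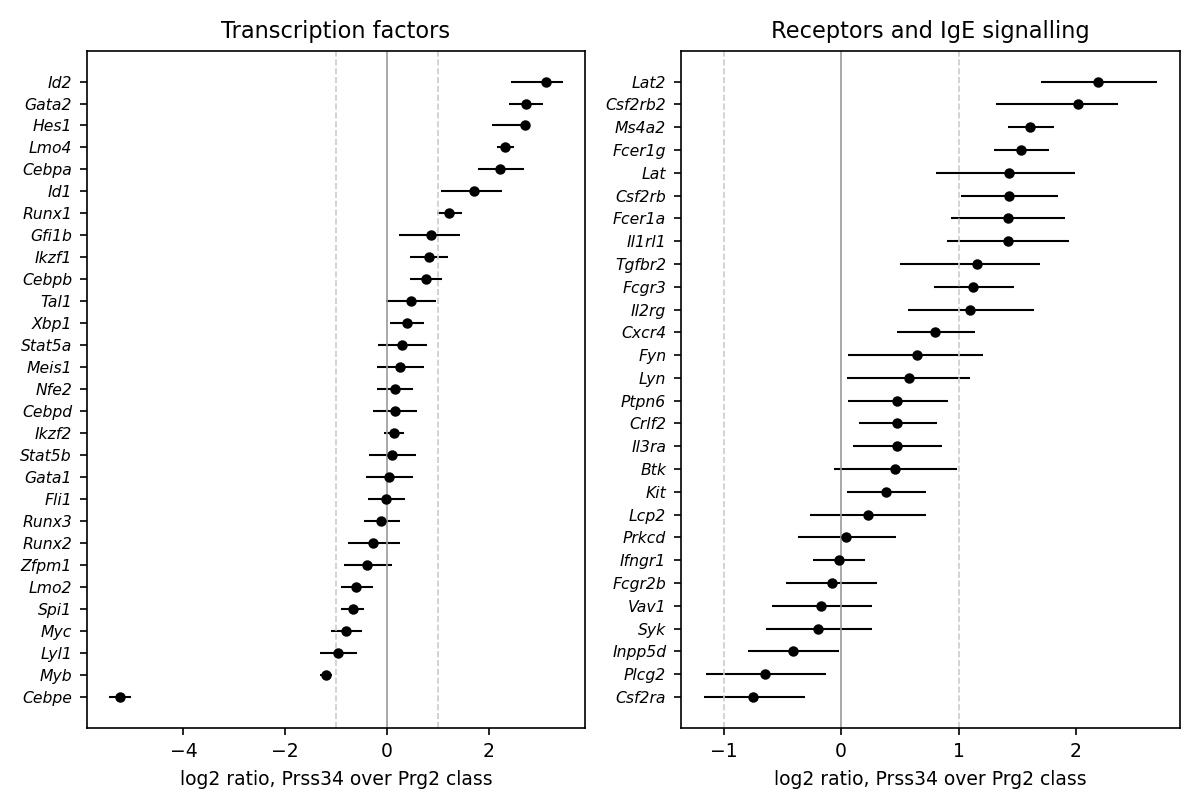
Log2 ratio of the Prss34 over the Prg2 class, from CPM + 10, for the measured transcription factors (left) and the measured cytokine receptors and IgE receptor signalling genes (right), with 95% counting intervals. Dashed lines mark 2-fold, Cebpe stands apart at -5.25, and no receptor or signalling gene lies beyond the 2-fold line on the Prg2 side.

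Some growth factor receptors and the chains of the IgE receptor were higher in the Prss34 class. Of 36 cytokine and growth factor receptors 11 were measured. Of these, 5 were at least 2-fold higher in the Prss34 class (3.09% of all measured genes) and none in the Prg2 class (1.67%). Their median log2 ratio was 0.80. Csf2rb, the beta chain shared by the IL-3, IL-5 and GM-CSF receptors, stood at 169.8 against 56.77 CPM, and its paralogue Csf2rb2 at 42.70 CPM against 2 UMIs. These 2 genes are near copies, so the split of reads between them is uncertain. Il3ra, the alpha chain for IL-3, differed little, at 110.0 and 76.20 CPM, and so did Kit, at 140.8 and 106.1. Il1rl1, the IL-33 receptor gene, had 92.81 against 28.39 CPM, a ratio of 3.270 (2.071 to 5.479).

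Of 22 genes of the IgE receptor and its signalling 17 were measured, with a median of 0.48. At least 2-fold higher in the Prss34 class were 6 (3.09% of all measured genes), and none in the Prg2 class (1.67%). All 3 chains of the receptor were among the 6. Ms4a2, the beta chain (chr19:11615523-11623719, minus strand), had a median of 14 UMIs in the Prss34 class (0 to 61) and 5 in the Prg2 class (0 to 25), with 1013 against 324.2 CPM. CD34 and Gstm1/CD63 stood at 74.92 and 12.70 CPM, below both. Fcer1g, the gamma chain shared with other Fc receptors, had 643.4 against 216.6 CPM. Fcer1a, the alpha chain that binds IgE (chr1:173221284-173227214, minus strand), was found in 109 of 337 and 2 of 37 cells, at 112.5 against 35.86 CPM. Its log2 ratio went from 1.42 to 2.20 without the cell with the most Fcer1a UMIs of each class, which in the Prg2 class held 58.33% of them, and to 3.61 without the 8 Prg2 class cells rich in basophil proteases. The adaptor genes Lat2 (179.4 against 31.37 CPM) and Lat (53.23 against 13.45) made up the rest with the IgG receptor gene Fcgr3 (216.6 against 94.12). The other 11 measured genes of the list were within 2-fold.

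Enzymes of lipid mediators pointed both ways. Of 15 eicosanoid genes 6 were measured, with a median of -0.02. At least 2-fold higher were 1 in the Prss34 class (3.09% of all measured genes) and 2 in the Prg2 class (1.67%). Alox5, the 5-lipoxygenase that opens leukotriene synthesis, stood at 125.2 against 34.36 CPM, with 5.469 and 0.9980 in the references, so both classes were above them. Lta4h, which forms leukotriene B4, was higher in the Prg2 class, at 267.4 against 71.95 CPM, close to the 291.3 CPM of Gstm1/CD63. Tbxas1, the thromboxane synthase gene, had 68.73 against 26.91 CPM. Of 20 genes of histamine and proteoglycan handling 10 were measured, with 1 higher in each class and a median of -0.24: Slc18a2, given above, and the chondroitin sulfotransferase gene Chst12, with 73.21 CPM in the Prg2 class against 29.83. Srgn, the serglycin core on which granule proteases are stored, was within 2-fold at 3095 and 2371 CPM.

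Among 22 cytokine and chemokine genes 7 were measured, with a median of 0.57. At least 2-fold higher were 3 in the Prss34 class (3.09% of all measured genes) and 1, Pf4, in the Prg2 class (1.67%). Il4, the cytokine basophils are known for, had 34.32 against 10.46 CPM, and Csf1, the macrophage growth factor, 97.88 against 32.87, with 6.580 and 3.659 in the references. Ccl9 had 219.9 against 89.64 CPM but 237.1 in CD34. Of 39 adhesion and surface genes 27 were measured, 3 were higher in the Prss34 class and 1 in the Prg2 class, with a median of 0.15. Itgb7, the beta 7 integrin, stood at 93.79 CPM against 4 UMIs, Cd200r3, an activating receptor of basophils and mast cells, at 81.31 against 7.470 CPM, and Ifitm1 at 2028 against 611.1 CPM. The transferrin receptor gene Tfrc was the 1 on the Prg2 side, at 58.27 against 22.23 CPM.

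Markers of other cells were looked at next. Of 14 neutrophil primary granule genes 12 were measured, with a median of 0.03. None was at least 2-fold higher in the Prss34 class (3.09% of all measured genes) and 4 were in the Prg2 class (1.67%). Mpo, the myeloperoxidase gene, was in every Prg2 class cell, with a median of 60 UMIs (3 to 150), against a median of 9 (0 to 160), and stood at 4003 against 1472 CPM. Elane, the neutrophil elastase gene, had 987.6 against 116.4 CPM, a ratio of 8.484 (7.583 to 9.492), and its neighbour Prtn3 817.2 against 352.7. Gstm1/CD63 cells were above both classes, at 6733, 7389 and 6195 CPM for these 3, and the list summed to 10260, 13790, 8129 and 30980 CPM in the Prss34, Prg2, CD34 and Gstm1/CD63 classes. Ms4a3, the fourth, stood at 747.0 against 311.8 CPM. The part of cells from the neutrophil lineage in these values was not tested.

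Of 14 late neutrophil genes 4 were measured, 3 were higher in the Prss34 class and none in the Prg2 class (median 2.11). All 3 were carried by the same 1 cell. Anxa1, the other, was broad, in 293 of 337 and 31 of 37 cells, at 481.6 and 334.7 CPM. A Prss34 class cell of 27920 UMIs held 437 of the 507 S100a8 UMIs and 483 of the 551 S100a9 UMIs, along with 81 of Prss34 and 48 of Mcpt8. Retnlg, the third, had 97.02% of its UMIs in that same cell, and without each gene's top cell none of the 3 was 2-fold higher. The other lists held little. Of 15 erythroid genes 4 were measured with 1 on each side (median 0.02), of 14 megakaryocyte genes 4 with Pf4 on the Prg2 side (median -0.44), and of 11 monocyte genes 2 with none past 2-fold (median 0.18). Of 18 lymphoid and dendritic genes 2 were measured with none past 2-fold (median -0.19), and of 10 macrophage genes only Slc40a1, at 44.82 CPM in the Prg2 class against 16.38 (log2 ratio -1.06). Car1 itself stood at 60.83 and 61.26 CPM, against 34.46 and 34.43 CPM in the references, but 78.05% of its Prg2 class UMIs were in 1 cell, and without the top cell of each class the log2 ratio was 1.09 in place of -0.01.

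Stem and multipotent progenitor genes were balanced, with 9 of 15 measured, 1 on each side and a median of 0.26. Sox4 was higher in the Prss34 class, at 380.8 against 127.0 CPM, and Adgrl4 in the Prg2 class, at 58.27 against 17.74. Cd34, the gene that names the reference class, had 127.1 and 138.9 CPM against 376.1 there. Growth and housekeeping lists showed few differences. The median was -0.49 over 22 of 25 S phase genes (1 on the Prg2 side, Hells, at 79.18 against 30.61 CPM) and -0.04 over 21 of 25 G2/M genes (none past 2-fold). It was -0.33 over 21 of 25 ribosome biogenesis genes, with only Polr1e on the Prss34 side. No member was past 2-fold among 29 of 30 genes of protein folding in the endoplasmic reticulum (median -0.09) or 8 of 22 survival and apoptosis genes (median 0.08). Of 30 lysosome and granule protease genes 24 were measured, with 2 on the Prg2 side, Ctsh and Serpina3g, and a median of -0.09.

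What the classes had in common was read against CD34 and Gstm1/CD63 cells. The Prss34 class had 187 genes at least 2-fold above CD34 (3.85% of 4857 measured) and 355 above Gstm1/CD63 (7.49% of 4739), and the Prg2 class 152 (3.13% of 4854) and 172 (3.73% of 4617). In the other direction the Prss34 class had 89 (1.83%) and 133 (2.81%) genes at least 2-fold below them, and the Prg2 class 72 (1.48%) and 50 (1.08%). At least 2-fold above both references in both classes were 33 of 5174 genes (0.638%), and 10 (0.193%) were at least 2-fold below. The 4 ratios share their reference cells, so these counts are read only as levels side by side.

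Rnase12, a ribonuclease A family gene (chr14:51056698-51057661, minus strand), was second to Prss34 by the smallest of its 4 ratios. It had 205.3 CPM in the Prss34 class and 254.0 in the Prg2 class, against 5.869 and 9.703 in CD34 and Gstm1/CD63, with medians of 2 (0 to 17) and 3 (0 to 14) UMIs a cell. Fam46a, a nucleotidyltransferase family gene, was in all 37 Prg2 class cells and 322 of 337 Prss34 class cells, at 687.3 and 549.3 CPM against 141.0 and 130.1. Slc35d1, a nucleotide-sugar transporter gene of the proteoglycan pathway, stood at 52.26 and 59.76 CPM against 10.36 and 8.927. These 3 were nearly level between the classes, whereas Fam129a (214.9 and 67.23 CPM), Alox5, Ms4a2, Fcer1a and Mcpt8, also among the 10 highest, were higher in the Prss34 class. Fcer1a counts here through 24 UMIs in 2 of the 37 Prg2 class cells. Prss34 counts largely through 6 Prg2 class cells, which held 158 of its 176 UMIs in that class. Cd63, a granule membrane gene that gives a reference class part of its name, was itself 1684 and 2438 CPM against 255.1 in CD34 and 737.4 in Gstm1/CD63.

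Lower in both classes than in both references were H2afy, which encodes the histone variant macroH2A1, at 508.7 and 670.8 CPM against 2364 and 1412, and Cdca7, a cell division gene, at 60.44 and 83.67 against 186.8 and 185.9. Ung, a DNA repair glycosylase gene, had 18.33 and 23.90 CPM against 66.65 and 75.46, Ass1, an arginine synthesis gene, 21.06 and 25.40 against 68.74 and 77.73, and the hexokinase gene Hk3 27.69 and 32.87 against 75.85 and 96.86. Tifab, Bex6 and F13a1 were under 6 CPM in both classes. Plppr3 stood at 17.16 and 19.42 CPM against 63.54 and 49.35. On chromosome 10 it lies on the minus strand (79860475 to 79874634) and Prtn3 on the plus strand (79874476 to 79883174), overlapping only at their 5′ ends. Prtn3, next in order, was just short of 2-fold, with a log2 ratio of -0.99 for the Prg2 class against CD34, and 1 clone-named gene among the 10 is not described.

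The Prss34 class was not uniform. By a threshold of 3 UMIs, chosen after the values were seen, 195 of its 337 cells (57.86%) held Mcpt8 without Gzmb, 50 (14.84%) Gzmb without Mcpt8, 19 (5.638%) both and 73 (21.66%) neither. These are ranges of 2 genes and not cell types, and 16 cells with 1 or 2 Gzmb UMIs and 28 with 1 or 2 Mcpt8 UMIs lay next to the threshold. Depth differed, with medians of 15960, 10538.50, 11316 and 12374 UMIs. Across the 337 cells, Spearman's rho between CPM values was 0.78 for Mcpt8 with Prss34, 0.57 for Mcpt8 with Cpa3, -0.34 for Mcpt8 with Gzmb and -0.51 for Cebpa with Gzmb, all within 1 library and given as descriptions.

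The 50 cells with Gzmb only had almost none of the basophil proteases that name the class. Prss34 stood at 7.442 CPM in them (4 UMIs in 4 cells) against 6579 CPM in the 195 cells with Mcpt8 only, and Cd200r3 at 5.581 against 108.1 CPM. Cebpa was 24.19 against 289.7 CPM, found in 9 of 50 against 187 of 195 cells, and Mpo was 65.12 against 1979 CPM, with medians of 0 and 26 UMIs a cell. Rnase12 was 7.442 against 266.7 CPM. These 5 genes were all lower in the cells with Gzmb only.

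Kept at similar levels were Gata2, at 848.4 and 669.4 CPM, Cpa3, at 1877 and 2039, Hdc, at 321.9 and 356.1, and Il4, at 35.35 and 33.15. The IgE receptor chains were lower in the cells with Gzmb only, with Ms4a2 at 454.0 against 1140 CPM and Fcer1a at 44.65 against 138.7. Higher in the cells with Gzmb only were Scin (1367 against 99.75 CPM), Hes1 (312.6 against 2.018), Id2 (478.1 against 18.16), Gpr183, an oxysterol receptor gene (534.0 against 57.95), Itgb7 (325.6 against 53.05), Kit (351.6 against 75.82) and Ifitm1 (4175 against 1344). Mitf, the master factor of mast cells, was low but uneven, at 40.93 against 2.018 CPM, and Cma1 had 109.8 against 0.8649 CPM, with 29 of its 59 UMIs in 1 cell. The proliferation gene Mki67 was found in 2 of 50 cells against 88 of 195. Kit, Itgb7, Cma1 and Mitf are known from the mast cell lineage, and the tryptase gene Tpsb2 had 0 UMIs in the 50 cells. Low Mcpt8 was set by the threshold in these 50 cells and in the 73 with neither gene. Prss34 rose with Mcpt8 across the class, yet it stood at only 56.80 CPM in the 19 cells with both Gzmb and Mcpt8. Whether the basophil label holds for the 50 and the 73 cells was not tested. No other name is given to either set.

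The 19 cells with both genes had 2791 CPM of Gzmb and 3420 of Mcpt8, but only 56.80 of Prss34, in 3 cells. Hes1 (320.5 CPM) and Id2 (795.2) were also high in them, and they held the most Cpa3, 4143 CPM. Cma1 stood at 377.3 CPM, but 43 and 33 of its 93 UMIs came from 2 cells. The 73 cells with neither had 29.68 CPM of Prss34 and 25.11 of Cd200r3, and kept Gata2 (723.7 CPM), Ms4a2 (889.2), Csrp3 (733.9) and Cebpa (219.2, in 54 of 73), with Cpa3 at 858.3 and Mpo at 617.5 CPM. Of markers of other lineages, Car1 and Prg2 had a median of 0 UMIs a cell in all 4 groups, and Elane a median of 1 in the cells with Mcpt8 only and 0 in the others.

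**Figure D5:**
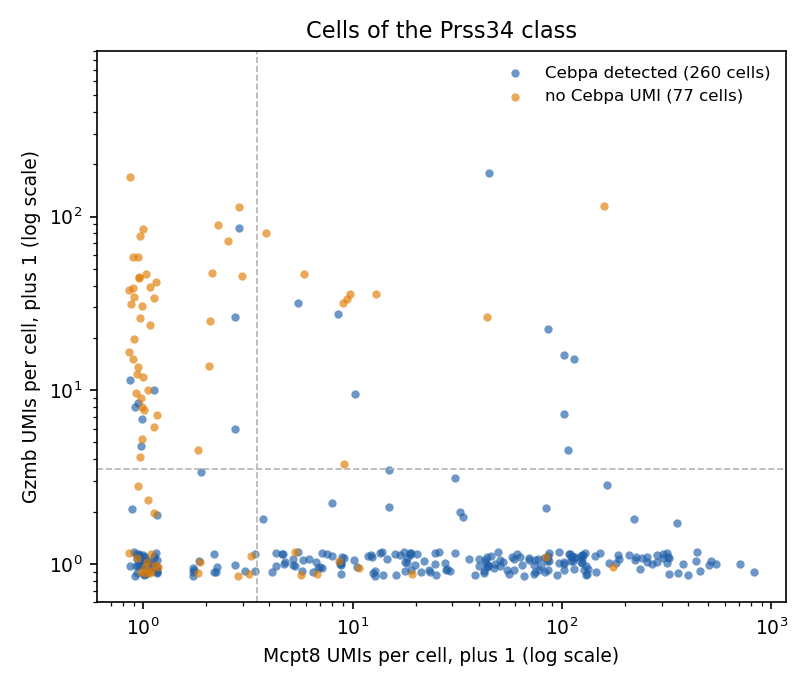
UMIs per cell of Mcpt8 (horizontal) and Gzmb (vertical) in the 337 cells of the Prss34 class, each plus 1 on log axes with a small random shift, coloured by whether Cebpa was detected (260 cells) or not (77 cells). Dashed lines separate 2 from 3 UMIs, and most cells in the upper left, with Gzmb and little Mcpt8, have no Cebpa UMI.

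Prg2 and Prg3 were detected in all 37 Prg2 class cells and Cebpe in 36, at levels that ranged from 3407 to 85130 CPM for Prg2, and the Ear genes in fewer. Ear1 at 5 or more UMIs was seen in 5 cells and Ear6 in 9, with 1 cell in common, and 18 of 37 cells had neither gene. Over the 37 cells Spearman's rho between CPM values was 0.56 for Prg3 with Cebpe, 0.44 for Prg2 with Epx, 0.11 for Prg2 with Prg3 and 0.05 for Epx with Mpo, again as descriptions. The basophil protease transcripts were concentrated, with 158 of the 176 Prss34 UMIs of the class in 6 cells.

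A few cells decided several low levels. The Prg2 class cell richest in Pf4 had 40781 UMIs, with 1060 of Prg2, 305 of Pf4, 64 of Prss34, 41 of Mcpt8 and 32 of Car1, genes known from 4 lineages. Whether it was 1 cell or several in a droplet was not tested. Its counterpart, the Prss34 class cell with the most Prg2, had 8268 UMIs, fewer than the class median, with 107 of Prg2, 18 of Prg3, 7 of Cebpe, 0 of Epx, 38 of Prss34 and 87 of Mcpt8. Outside the 2 classes, 10 or more Prg2 UMIs were found in 14 of 621 Gstm1/CD63 cells and 2 of 1076 CD34 cells, and 10 or more Mcpt8 UMIs in 6 and 10.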

How the data were processed

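Version 3 10x libraries were processed with Cell Ranger on mm10, per the submitters' processing notes, with no version given. The authors deposited raw UMI counts per gene and cell, each cell's mitochondrial fraction and library, and 1 of 18 class names. How the classes were assigned is unstated in the labels and file headers. Matrix sums and detected genes equalled the deposited per-cell counts for all 14795 cells, and each cell had at least 1000 detected genes.

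Each class was reduced to its summed UMIs, scaled to CPM. Log2 ratios used CPM + 10, a gene was measured at 30 CPM, 20 UMIs and 5 cells in the higher class, and 2-fold was the threshold. Intervals (exact Poisson or conditional binomial for counts, Clopper-Pearson for shares, 95%) cover counting error only, and a count of 0 was given a floor of 3 UMIs. The shares set beside the Car1 class used cells thinned at random to 5000 UMIs. Other counts of cells with a UMI are unthinned unless stated. No doublet caller was run. The 24 gene lists, the classes and the rule for naming genes were chosen with earlier results of these data known. The rule named the 15 highest and 15 lowest measured genes, the 10 highest and 10 lowest over both references, all members of the 3 effector lists and up to 6 from each other list, without predicted, clone-named, mitochondrial and sex-linked genes. Genes named beyond it (such as Gata1, Spi1, Cebpb, Kit, Il3ra, Srgn, Cd34 and Car1), those named by Gzmb group, and single cells were chosen after their values were seen. A gene that the rule names is not reported here. Gene positions are from GENCODE M21 (30934 of 31053 IDs located). Alternatives changed the pseudocount, minimum, fold, weighting, scaling, depth and the cells kept. The code was tested on simulated data and used Python 3.11.15, NumPy 2.4.6, SciPy 1.17.1, pandas 2.3.3 and matplotlib 3.10.9.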

Additional observations from a re-analysis of the deposited data

How the results depend on the processing

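With 1 library, no alternative has a replicate, and the 37 Prg2 class cells set the precision. No paired analysis was possible because Control is 1 library and no result comes from a test. The counts of genes higher in the Prss34 class (150) and in the Prg2 class (81) became 69 and 31 at a minimum of 100 CPM, 226 and 179 by the mean of the cells' own CPM, 402 and 51 in cells thinned to 5000 UMIs, 419 and 309 at 1.5-fold, and 29 and 19 at 4-fold. With a pseudocount of 1 the count on the Prg2 side was 147. Thinning moved the median log2 ratio of measured genes from 0.02 to 0.32 with 3140 genes measured. It left 317 Prss34 and 30 Prg2 class cells, while the minimum stayed at 20 UMIs and 30 CPM. The UMI minimum then stood above the CPM minimum in the Prg2 class only, so genes higher there were measured less readily. The thinned counts and median are therefore not a like-for-like comparison of the classes. How much of the shift came from this was not tested. Of the 231 genes past 2-fold, 154 were past it again in the same direction after thinning, 212 by the mean of cells, 226 without cells of 10% or more mitochondrial UMIs, and 197 without cells over 2 times the median UMIs.

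The genes higher (33) and lower (10) in both classes than in both references were 19 and 3 at 100 CPM, 104 and 50 at 1.5-fold, 4 and 0 at 4-fold, and 58 higher with a pseudocount of 1. At 4-fold, 5 of the basophil and mast cell effectors were higher in the Prss34 class, in place of 11. Chosen after seeing the data, leaving out the 8 Prg2 class cells with 10 or more basophil protease UMIs gave 5 genes lower in both classes, and leaving out cells of 3 or more Gzmb UMIs kept 179 of the 231 genes and turned Cma1 to -0.10. S100a9 and S100a8 turned to -0.23 and -0.22 without cells over 2 times the median UMIs, and S100a9 to -0.06 without its top cell. Of the gene values under the alternatives 1642 stayed within the counting interval of the reported value, 274 left it and 4 reversed.

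The shares of cells with a UMI changed with the depth and with the cells kept, since thinning to 10000 UMIs leaves out 62 Prss34 and 10 Prg2 class cells. Unthinned, they were 55.79% for Prss34 in the Prss34 class, 81.08% for Mcpt8 in the Prg2 class, 98.52 and 64.86% for Gata2 and 77.15 and 45.95% for Cebpa in the Prss34 and Prg2 classes. Thinned to 10000 UMIs, they were 57.82 and 51.85% for Prss34, 98.55 and 88.89% for Ms4a2, 99.27 and 51.85% for Gata2 and 79.27 and 37.04% for Cebpa in the same order, and 77.09% for Mcpt8 in the Prss34 class.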

Other observations

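The library labelled Runx1 KO held 25 cells of the Prg2 class, with 357143 UMIs in all. They enter no comparison here, and with 1 library on each side their levels are given beside the Control levels without a test. Prg2 stood at 19350 CPM in them and 28840 in Control, Prg3 at 2904 and 2381, Epx at 526.4 and 1089, and Cebpe at 980.0 and 1110. Ear6 stood at 414.4 and 233.1 CPM and Hdc at 800.8 and 475.1. Prss34 stood at 5.600 CPM against 262.9, where 6 Control cells gave 158 of 176 UMIs, and Mcpt8 at 11.20 against 355.6, while Ms4a2 stood at 280.0 against 324.2 and Gata2 at 89.60 against 98.61. Rnase12 stood at 64.40 CPM against 254.0, and Fcer1a had 0 UMIs against 35.86 CPM in Control, from 2 of 37 cells. Pf4 stood at 33.60 CPM against 470.6, of which 1 Control cell gave 96.83%.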
